A study of Mus musculus with 23 samples.

Results

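Brain RNA of 6 shocked heterozygous mouse libraries (HT shock) was set against 6 unshocked wild-type libraries (WT control), the corners of a design with 2 genotypes and 2 treatments. The members of the comparison were taken from the labelled genotype and treatment, 12 of 23 libraries in all, and 17118 of 18578 genes with a mean of at least 10 normalized counts over the 23 libraries were tested. Because genotype and foot-shock change together between these groups, their parts in a difference cannot be told apart from these 12 libraries alone. The other 11 libraries, 6 heterozygous without shock (HT control) and 5 wild-type with shock (WT shock), entered the same fit and gave the values of each step.

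All libraries came from brain of male C57BL/6J mice. WT control carried the wild-type genotype and had no foot-shock, and HT shock carried the genotype that the labels call heterotype, with 1 edited Grin2b allele named C456Y, and received foot-shock, a brief unpleasant current through the cage floor. The sample labels give postnatal day 17 for every library while the series text speaks of adult animals, so the age is unresolved. The brain region, the time between shock and dissection, and whether each library came from 1 animal or from a pool are not given in the sources used here. P-values therefore rest on differences among these libraries, and that spread may be technical.

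Grin2b encodes GluN2B, a subunit of the NMDA receptor, the glutamate-gated channel that admits calcium when presynaptic release coincides with postsynaptic depolarization. GluN2B-containing receptors are abundant in forebrain, including the cortex, hippocampus and striatum, and are known for their part in synapse maturation and plasticity. The striatum receives glutamate from the cortex and thalamus and dopamine from the midbrain, and its projection neurons use GABA as their transmitter.

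In the groups compared, the normalized counts of a library summed to 31.45 M at the lowest and 32.51 M at the highest (M, mega), and sequencing depth is unknown. Correlations between any of the 23 libraries on the log2 scale ranged from 0.9807 to 0.9908. Transcripts that mark different brain regions were present in every library, among them Slc17a7 of cortex and hippocampus (28500 to 39600 normalized counts), Gabra6 of cerebellar granule cells (2120 to 3310), Drd2 of striatum (469 to 1070) and Tcf7l2 of thalamus (707 to 1320), so no single region is marked. On the first principal component of the 12 libraries, with 18% of their variance, HT shock lay between -27.4 and -7.35 and WT control between -1.03 and 25.3. WT control replicate 1, at -1.03, was the library of its group closest to HT shock.

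Against WT control, the test called 18 of 22 genes of striatal projection neurons lower in HT shock, with 8 of 13 of midbrain dopamine neurons (5 without HT shock replicate 1) and 7 of 16 of thalamic neurons, beside 11.3% of all genes tested. Higher in HT shock were 9 of 24 neuropeptide and interneuron genes, Sst and Npy among them, and 7 of 18 genes of cortical glutamatergic neurons, including Slc17a7, beside 8.8% of all genes; 2 genes of each of these lists were lower. In total 1506 genes were higher and 1928 lower in HT shock by limma at an adjusted p under 0.05, 20.1% of all genes tested (8.8% higher and 11.3% lower). Most differences were small. The median size among the called genes was 0.221 on the log2(normalized count + 1) scale used for every fold change here, and 210 genes differed by over 1.5-fold, 58 of them higher and 152 lower. In 1420 genes (8.3% of those tested) the lowest library of one group lay above the highest of the other, 535 higher (3.13%) and 885 lower (5.17%) in HT shock. The count of calls rested on single libraries: it was 2264 with HT shock replicate 1 left out and 2056 with WT control replicate 4 left out, where 849 genes were higher and 1207 lower. The number higher was also 945, 954 and 977 without HT shock replicate 1, 2 or 3.

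The way from WT control to HT shock runs through HT control or through WT shock. By limma 0 genes passed when HT control was set against WT control and 0 when HT shock was set against HT control, where 1895 and 2352 genes had an unadjusted p under 0.05. Likewise 0 passed in the comparison of WT shock with WT control (637 unadjusted) and 0 in the interaction (1101 unadjusted), the test of whether the combined difference departs from the sum of the genotype step without shock and the shock step in wild type. The smallest adjusted p of the interaction was 0.552. The genotype comparison under shock, HT shock against WT shock, did give calls, with 676 genes higher (3.95%) and 913 lower (5.33%), 9.28% of those tested. These steps share libraries with the combined difference and add up to it, so their values are given side by side without a count of common genes. The omission of single libraries was run for the combined difference only. The steps were thus not checked without HT control replicate 6, whose tilt with transcript length is given below. In the steps below, the genotype step is HT control minus WT control, the shock step is HT shock minus HT control, and the wild-type shock step is WT shock minus WT control.

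The difference moved with the length and base composition of transcripts. Genes were ranked by their longest annotated transcript. In the shortest quintile (up to 1858 bases) the median log2 difference was 0.108, and in the longest quintile (from 5107 bases) it was -0.115. Of the shortest quintile 14.9% of genes were higher and 1.98% lower, and of the longest quintile 2.31% were higher and 30.8% lower. By GC content the medians ran from -0.108 in the quintile with the least GC to 0.106 in the quintile with the most. The tilt of single libraries, the median deviation of the longest quintile minus that of the shortest, was -0.198 to -0.0137 in HT shock and -0.0356 to 0.188 in WT control. The -0.0356 was that of WT control replicate 1, the library of its group closest to HT shock on the first principal component. HT shock replicate 6, with the -0.0137, lay at -15.2 on that component. Whether the component follows the tilt was not tested. In HT control it ranged from -0.328 in replicate 6 to 0.167, and in WT shock from 0.000571 to 0.137. A correction of each library for length and GC content was chosen after seeing the data. It left 1465 of 17106 genes called (8.56%), 698 higher and 767 lower. Of these calls, 1135 were among the genes called without it (33.1% of those, and 77.5% of the corrected calls). Corrected counts of list members below stand beside this 8.56% of all genes, not beside the 20.1% called without the correction. What lies behind the tilt was not tested, and corrected values are given below beside the groups they bear on.

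**Figure D1:**
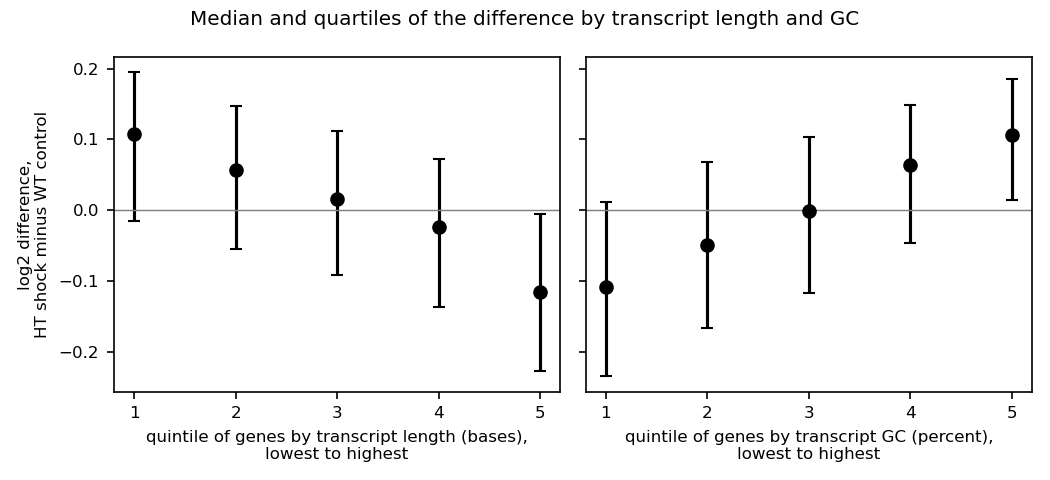
Log2 difference of HT shock minus WT control (vertical axis) for genes in quintiles by length (left) and GC content (right) of the longest annotated transcript. Points are medians and bars are quartiles over genes; the median falls from 0.108 in the shortest quintile to -0.115 in the longest and rises from -0.108 to 0.106 with GC content.

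The protein-coding gene Grin2b (ENSMUSG00000030209), on the minus strand of GRCm38 chromosome 6 from 135713233 to 136173511, was lower in HT shock. Normalized counts were 12521, 13514 and 15225 (lowest, median and highest of 6) in WT control and 9874, 10717 and 11518 in HT shock. The groups did not overlap, with a log2 difference of -0.35 ± 0.08 by limma (SE, adjusted p = 0.00589). The genotype step was -0.16, the shock step -0.19 and the wild-type shock step -0.09. Its longest transcript has 24060 bases, which places it in the longest quintile of genes, and after the correction the difference was -0.17 (limma adjusted p = 0.0415). Since C456Y is named as a protein change, the mRNA level is no check of the labelled genotypes.

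Among the other 22 ionotropic glutamate receptor and auxiliary subunit genes, 4 rose and 7 fell, so that with Grin2b the list of 23 had 4 higher and 8 lower and a median of -0.06, against 0.00818 over all genes tested. The obligatory NMDA receptor subunit gene Grin1 rose by 0.13 ± 0.04 on the log2 scale (SE, limma adjusted p = 0.0169), while Grin2a, which encodes the GluN2A subunit, fell by 0.15 ± 0.06 (adjusted p = 0.0499). Gria2, whose AMPA receptor subunit limits calcium entry, fell by 0.33 ± 0.09 (adjusted p = 0.0133). Grin1, Grin2a and Gria2 were chosen after their values were seen, as were all other genes below that are introduced as picked. The kainate receptor gene Grik2 had 2540, 2837 and 2965 normalized counts in WT control and 2249, 2353 and 2508 in HT shock, without overlap (-0.24 ± 0.05 SE, limma adjusted p = 0.00576). Its difference turned to 0.01 ± 0.04 after the correction (adjusted p = 0.93), so its direction depends on that choice. Cacng3, an AMPA receptor auxiliary subunit, rose by 0.22 ± 0.05 with overlapping groups (adjusted p = 0.00478), and its corrected adjusted p was 0.0894. After the correction 1 of the 23 was higher and 2 were lower, with a median of 0.02. The 1 higher was the kainate receptor gene Grik5 (0.12, limma adjusted p = 0.0327), so Grin1 was not called there. Grin2b was 1 of the 2 lower, so at most 1 of Grin2a and Gria2 kept its call.

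The genes of striatal projection neurons gave the largest share of calls among the 32 gene lists. Of 22 measured, 18 fell and 0 rose, the median was -0.35, and in 11 the libraries of the groups did not overlap. After correction for length and GC content 16 of the 22 were lower and the median was -0.41. The count ranged from 16 without HT shock replicate 1 to 19 over the omission of each of the 23 libraries. In bulk RNA, fewer cells of a type and less RNA per cell cannot be told apart, here and for the other cell types. As the brain region is not given, uneven shares of a region in the tissue taken cannot be told apart from these either.

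Scn4b, a sodium channel beta subunit enriched in these neurons (ENSMUSG00000046480, GRCm38 chromosome 9, 45138395 to 45154152, plus strand), had 8300, 8736 and 9763 normalized counts in WT control and 4448, 5389 and 6777 in HT shock. All HT shock libraries lay below all WT control libraries, with a log2 difference of -0.66 ± 0.09 (SE, limma adjusted p = 0.000654). The genotype step was -0.29, the shock step -0.37 and the wild-type shock step -0.12. Rasd2, the small GTPase Rhes (chromosome 8, 75213944 to 75224113, plus strand), had 3597, 3859 and 4006 against 2653, 2955 and 3478, again without overlap (-0.36 ± 0.05 SE, limma adjusted p = 0.000654). Syndig1l had 1154, 1274 and 1394 normalized counts against 782, 911 and 1077 (-0.47 ± 0.07). The adenylyl cyclase gene Adcy5 (chromosome 16, 35154877 to 35305738, plus strand), which makes cyclic AMP downstream of dopamine and adenosine receptors, had 7852, 8287 and 9184 against 5721, 6687 and 7550 (-0.33 ± 0.05). These 4 genes did not overlap between groups and passed without each of the 23 libraries.

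Picked from the same list after their values were seen, the receptor genes of the indirect and direct pathways fell alike in sign: Drd2 by 0.59 ± 0.09, Adora2a by 0.73 ± 0.12 and Drd1 by 0.56 ± 0.11 on the log2 scale (SE, limma). Pde10a, the phosphodiesterase that breaks down cyclic nucleotides in these cells, had -0.75 ± 0.12, the lowest value of the list. The 4 members without a call were Ptpn5 (0.00 ± 0.04), Meis2 (-0.13 ± 0.05, adjusted p = 0.0504), Isl1 (-0.14 ± 0.12) and Ido1 (-0.31 ± 0.18). Ptpn5, the striatal-enriched phosphatase STEP, is also known from cortex and hippocampus.

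The striatal score of a library, the mean over the list of its log2 deviations from each gene's mean over the 23 libraries, was 0.0879, 0.176 and 0.251 (lowest, median and highest) in WT control and -0.503, -0.207 and -0.0167 in HT shock. The groups did not overlap. HT control overlapped both of them, at -0.21, -0.0344 and 0.131, and WT shock lay at 0.0714, 0.106 and 0.133. The list median was -0.18 in the genotype step, -0.18 in the shock step and -0.05 in the wild-type shock step. HT shock libraries spread more widely than those of WT control, with replicate 1 lowest and replicates 3 and 5 highest.

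The promoters of the leading striatal genes are shown since these genes moved together. RefSeq promoter windows (GRCm38.p6, 250 bases before to 50 after the start) were found for 3 of the 4 named genes, printed 5′ to 3′ on the plus strand with GC boxes (GGGCGG or its complement CCGCCC) in capitals. The windows are chr8:75213694-75213993 for Rasd2, chr9:45138374-45138673 for Scn4b, whose RefSeq start lies 229 bases from the GENCODE gene start, and chr16:35154614-35154913 for Adcy5.
Rasd2: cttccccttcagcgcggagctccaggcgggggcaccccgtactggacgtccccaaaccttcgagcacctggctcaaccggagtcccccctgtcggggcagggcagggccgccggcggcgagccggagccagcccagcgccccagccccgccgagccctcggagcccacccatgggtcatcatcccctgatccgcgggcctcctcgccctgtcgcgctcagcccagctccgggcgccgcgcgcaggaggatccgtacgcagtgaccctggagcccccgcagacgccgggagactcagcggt
Scn4b: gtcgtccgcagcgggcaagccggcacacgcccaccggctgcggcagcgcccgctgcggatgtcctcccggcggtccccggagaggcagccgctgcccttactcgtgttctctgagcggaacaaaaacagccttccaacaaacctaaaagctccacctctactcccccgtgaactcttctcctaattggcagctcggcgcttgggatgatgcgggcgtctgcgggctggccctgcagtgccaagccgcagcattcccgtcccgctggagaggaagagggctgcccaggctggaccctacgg
Adcy5: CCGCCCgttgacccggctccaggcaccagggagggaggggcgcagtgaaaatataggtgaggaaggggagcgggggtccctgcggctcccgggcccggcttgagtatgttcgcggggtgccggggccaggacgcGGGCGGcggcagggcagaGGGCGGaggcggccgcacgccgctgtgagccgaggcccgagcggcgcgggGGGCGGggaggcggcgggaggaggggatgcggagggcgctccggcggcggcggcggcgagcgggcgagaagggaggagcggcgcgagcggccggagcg
The 3 windows were rich in GC, at 74.7% in Rasd2, 66.3% in Scn4b and 79% in Adcy5, against a median of 52.7% over 32851 promoter windows of the same length. Adcy5 held 4 GC boxes, and Rasd2 and Scn4b held 0, where 35.7% of all windows hold at least 1. The half-site of the cyclic AMP response element (TGACG or CGTCA, 20.8% of all windows) and the TATA box (TATAAA or TTTATA, 13.6%) matched in 0 of the 3. A match describes these letters only.

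**Figure D2:**
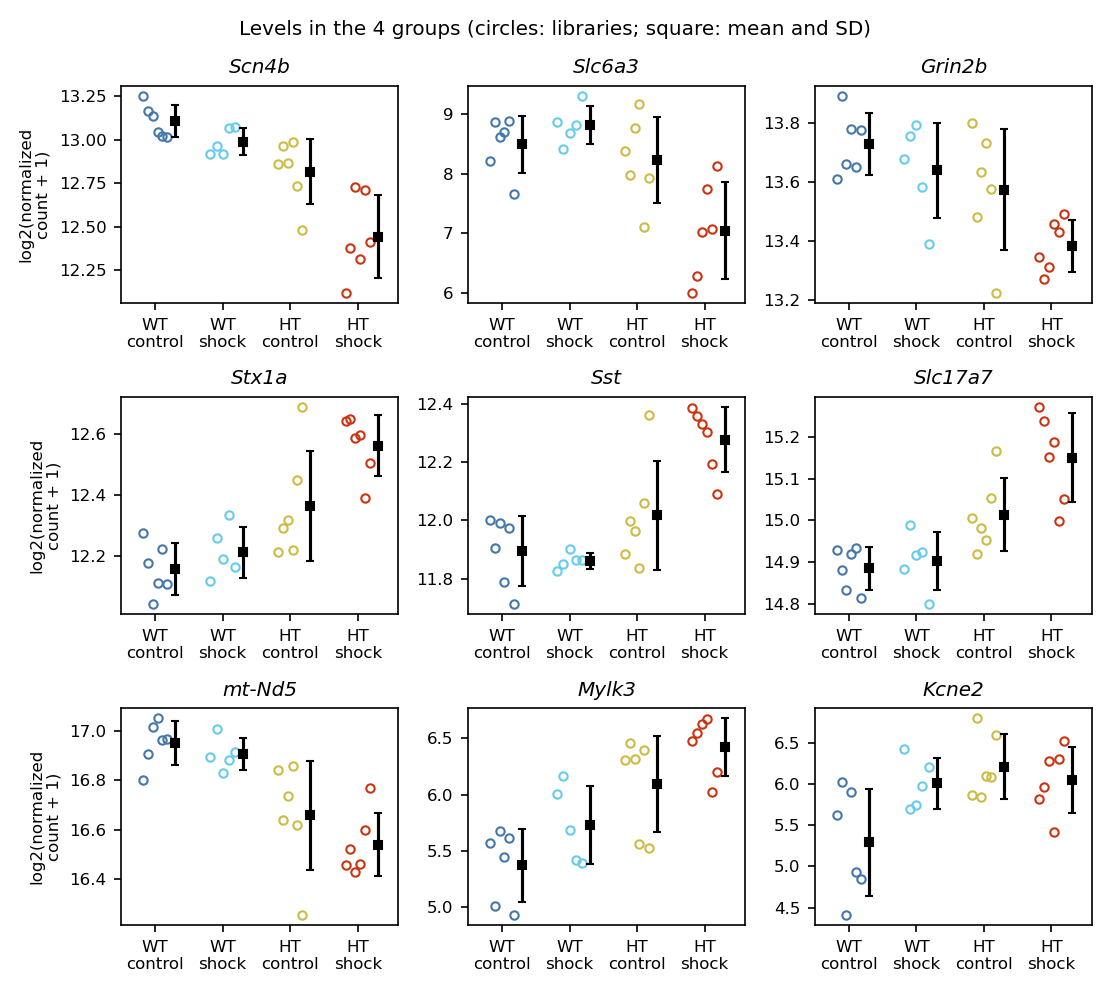
Log2(normalized count + 1) of 9 genes in each library (circles) of the 4 groups, with the group mean and SD (squares and bars). Scn4b, Grin2b, Stx1a, Slc17a7 and Sst do not overlap between WT control and HT shock, while Kcne2 does, and the HT control means of the first 5 lie between those of WT control and HT shock.

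Midbrain dopamine neurons supply the striatum with dopamine. Of 13 of their genes tested (15 listed) 8 fell and 0 rose with a median of -0.29, and the count was 5 without HT shock replicate 1 and 6 after the correction. Slc6a3, the dopamine transporter that clears dopamine after release (ENSMUSG00000021609, GRCm38 chromosome 13, 73536747 to 73578672, plus strand), had the lowest fold change of all genes named by rule. Its normalized counts were 200, 403 and 471 in WT control and 62.7, 131 and 279 in HT shock. The groups overlapped, since HT shock replicates 4 and 6 lay above the lowest WT control library. Slc6a3 fell by 1.45 ± 0.36 on the log2 scale (SE, limma adjusted p = 0.0101), and the difference ranged from -1.67 to -1.24 over the omission of each library. The genotype step was -0.26, the shock step -1.18 and the wild-type shock step 0.32.

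Slc10a4, a vesicular protein of monoamine and cholinergic neurons, fell from 171, 191 and 211 to 90.5, 123 and 181 normalized counts with overlapping groups (-0.58 ± 0.14 SE, limma adjusted p = 0.00691). Dlk1, a membrane protein related to Notch ligands, fell from 1011, 1083 and 1316 to 759, 836 and 980 without overlap (-0.38 ± 0.08, adjusted p = 0.00544). Aldh1a1, a retinaldehyde dehydrogenase of a subset of dopamine neurons, had -0.19 ± 0.04 (adjusted p = 0.00553). Picked after its value was seen, Th, the rate-limiting enzyme of dopamine synthesis, had 0.03 ± 0.09 (adjusted p = 0.857), while the vesicular monoamine transporter Slc18a2 fell by 0.49 ± 0.15 (adjusted p = 0.0239). Scores of the list were -0.0892 to 0.167 in WT control and -0.558 to -0.0196 in HT shock, and they overlapped.

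All 16 thalamic genes had negative values (median -0.21), of which 7 passed as lower, 5 after the correction, and 9 were not called. Tcf7l2, a transcription factor of thalamic neurons, fell from 1063, 1123 and 1323 to 707, 864 and 1034 normalized counts without overlap (-0.44 ± 0.09 SE, limma adjusted p = 0.00311). Slc17a6, the vesicular glutamate transporter of thalamus and brainstem, fell from 2588, 2878 and 3343 to 2001, 2269 and 2446 without overlap (-0.37 ± 0.08). Slitrk6, a synaptic adhesion protein, had -0.60 ± 0.13 with overlapping groups. Of 16 brainstem and monoamine genes 4 fell, 0 rose and 12 were not called (median -0.27), 5 of the 16 with positive values. The 4 were the glycine receptor gene Glra1 (-1.10 ± 0.31, adjusted p = 0.018), the transcription factor Pax5 (-0.90 ± 0.25) and the cholinergic genes Slc5a7 (-0.52 ± 0.14) and Chat (-0.47 ± 0.14). The call of Chat was lost without HT shock replicate 1 or 4, and after the correction, where Slc5a7 had -0.37 (adjusted p = 0.0621), 3 of the 16 were lower.

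Of 18 genes of cortical glutamatergic neurons 7 rose, 2 fell and 9 were not called (median 0.10), and 5 rose and 1 fell after the correction. Slc17a7, the vesicular glutamate transporter of cortex and hippocampus, had 28808, 30582 and 31286 normalized counts in WT control and 32715, 36895 and 39606 in HT shock. All HT shock libraries lay above all WT control libraries (0.27 ± 0.04 SE, limma adjusted p = 0.0013), and the corrected difference was 0.17. Neurod6, a transcription factor of cortical pyramidal neurons, rose from 1498, 1589 and 1651 to 1752, 1968 and 2017 without overlap (0.28 ± 0.05, adjusted p = 0.00162). The members that fell were Foxp2 (-0.38 ± 0.08, and -0.22 after the correction), a transcription factor of deep cortical layers that striatum and thalamus also express, and Etv1 (-0.31 ± 0.08). The scores of the list overlapped, at -0.0834 to 0.0532 in WT control and -0.088 to 0.105 in HT shock.

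Among 24 neuropeptides and interneuron markers 9 rose, 2 fell and 13 were not called (median 0.08), with 6 higher without HT shock replicate 4, and 1 lower without HT shock replicate 1. After the correction 6 were higher and 2 lower. Sst, the peptide somatostatin (chromosome 16, 23889573 to 23890958, minus strand), had 3354, 3925 and 4097 normalized counts in WT control and 4361, 5100 and 5344 in HT shock. The groups did not overlap (0.38 ± 0.07 SE, limma adjusted p = 0.00197), and the genotype step was 0.12, the shock step 0.26 and the wild-type shock step -0.03. Npy, neuropeptide Y (chromosome 6, 49822710 to 49829507, plus strand), had 1103, 1341 and 1495 against 1634, 1737 and 2058 (0.44 ± 0.07), and Cck, cholecystokinin, 4516, 4697 and 5057 against 5522, 6163 and 6493 (0.36 ± 0.06), both without overlap. After the correction Sst had 0.23, Npy 0.30 and Cck 0.20, each still called. Cort, cortistatin, had 76, 95.3 and 110 against 103, 150 and 194 with overlapping groups (0.64 ± 0.13, adjusted p = 0.00393). The cholecystokinin receptor gene Cckbr rose from 988, 1181 and 1245 to 1384, 1518 and 1717 without overlap, with the smallest p of all higher genes named by rule (0.41 ± 0.06, adjusted p = 0.000753). The 2 members that fell were Penk (-0.27 ± 0.08) and Tac1 (-0.21 ± 0.06), the enkephalin and substance P precursors that striatal projection neurons also express.

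**Figure D3:**
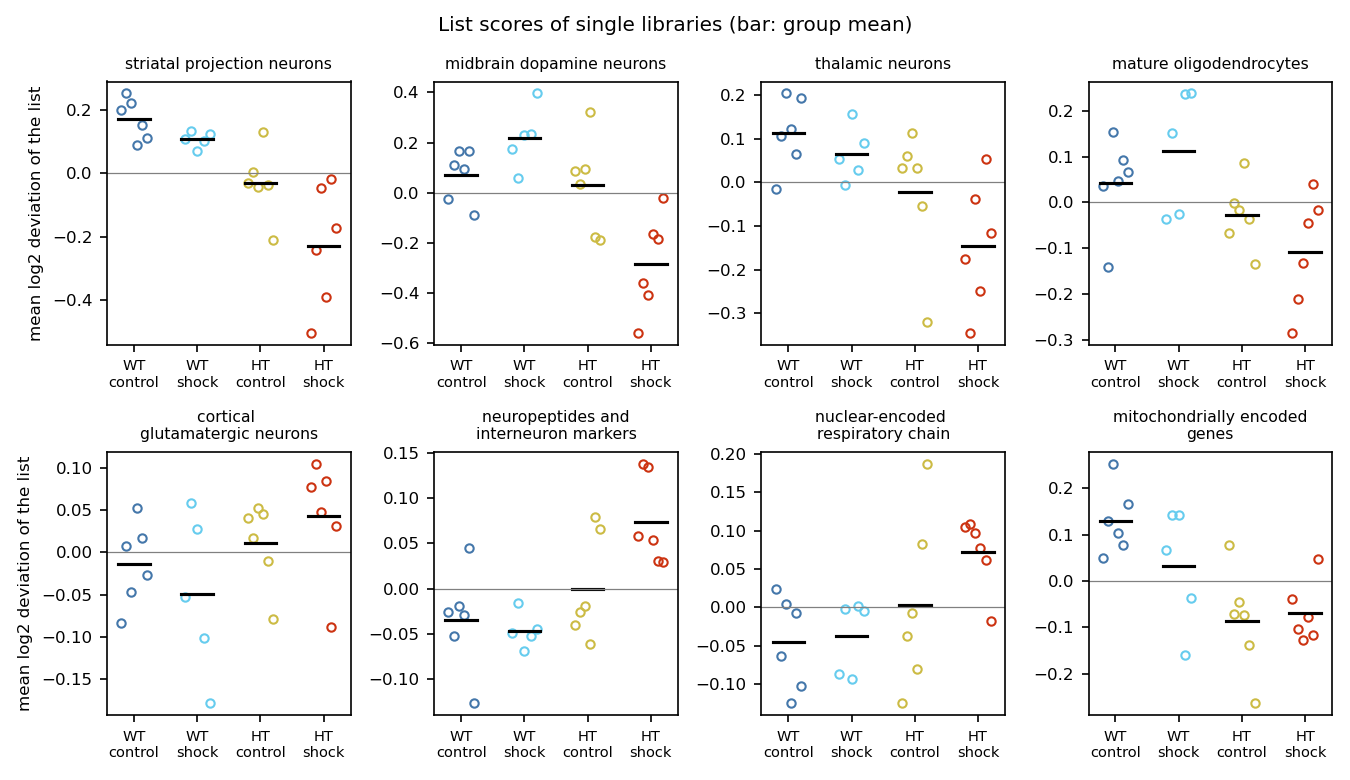
Scores of 8 gene lists, the mean log2 deviation of a list's members from their means over the 23 libraries (vertical axis), for each library (circles) of the 4 groups with the group mean (bar). Striatal scores are 0.0879 to 0.251 in WT control and -0.503 to -0.0167 in HT shock, and those of the interneuron list overlap between -0.127 to 0.0447 and 0.0294 to 0.138.

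Synaptic lists held calls in both directions. Of 25 synaptic vesicle release genes 6 rose and 8 fell (median -0.01, and -0.03 to 0.003 over the omission of each library). Stx1a, the SNARE protein syntaxin 1A, rose from 4214, 4522 and 4950 to 5367, 6174 and 6432 normalized counts (0.41 ± 0.06 SE, limma adjusted p = 0.00129), and the vesicle protein genes Syp (0.21 ± 0.03) and Syn1 (0.18 ± 0.03) rose too, none of the 3 with overlap. Sv2c, a vesicle glycoprotein of striatum and midbrain, fell from 3071, 3236 and 3572 to 1919, 2322 and 2799 without overlap (-0.50 ± 0.10, adjusted p = 0.00262). After the correction 4 rose and 5 fell, and Syn1 had an adjusted p of 0.127.

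Of 27 postsynaptic genes 4 rose and 8 fell (median -0.06), and after the correction 5 rose and 0 fell. The number that fell was 5 when HT shock replicate 1, 3 or 5 or WT control replicate 2, 4, 5 or 6 was left out. Nrgn, a calmodulin-binding protein of forebrain neurons, rose from 22671, 24922 and 25759 to 28345, 30469 and 34030 normalized counts (0.34 ± 0.06 SE, limma adjusted p = 0.00232, and 0.20 after the correction). Ppp3ca, a calcineurin catalytic subunit, had -0.14 ± 0.03 (adjusted p = 0.00615), and -0.05 after the correction (adjusted p = 0.355). Neither overlapped between the groups.

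Of 24 GABA synapse genes 11 fell, 1 rose and 12 were not called (median -0.16), and after the correction 6 fell and 0 rose with a median of -0.04. The 1 that rose, Gabrd, lost its call when HT shock replicate 1, 2, 3 or 5 or WT control replicate 4 or 6 was left out. Gad2, a GABA-synthesizing enzyme, fell from 7443, 8384 and 8510 to 6380, 6857 and 7286 (-0.26 ± 0.06 SE, limma adjusted p = 0.00478, and -0.13 after the correction), and the GABA transaminase gene Abat from 12221, 12811 and 13160 to 10628, 10954 and 11620 (-0.21 ± 0.04, adjusted p = 0.00237). Slc6a11, the astrocytic GABA transporter GAT-3, had -0.28 ± 0.07 (adjusted p = 0.00721). None of these 3 overlapped between the groups.

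Potassium, sodium and calcium channel genes were lower in larger numbers than higher. Of 32 potassium channel genes 15 fell and 4 rose (median -0.13), and 9 fell and 3 rose after the correction. The number that rose was 2 without HT shock replicate 1 or 2 or WT control replicate 4. Kcnab1, a beta subunit, had 3690, 3762 and 3823 normalized counts in WT control and 2695, 3013 and 3128 in HT shock, without overlap (-0.34 ± 0.05 SE, limma adjusted p = 0.000654). Kcnq3, a subunit of the M-current channel, fell from 5884, 6771 and 7459 to 4811, 4979 and 5383 without overlap (-0.43 ± 0.08, adjusted p = 0.00232, and -0.24 after the correction). Of 27 sodium and calcium channel genes 13 fell and 3 rose (median -0.13), and 8 fell and 0 rose after the correction. Besides Scn4b, Scn3a (-0.49 ± 0.10), Cacnb2 (-0.34 ± 0.05) and Scn1a (-0.30 ± 0.06) fell without overlap, and their corrected differences were -0.30, -0.17 and -0.13.

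Among 32 chromatin and transcription regulators linked to autism 13 fell and 2 rose (median -0.15), and 3 fell and 2 rose after the correction, with a median of -0.05. The number that rose was 4 without WT control replicate 1. Kmt5b, a histone methyltransferase (-0.31 ± 0.06 SE, limma adjusted p = 0.00204), and Myt1l, a neuronal transcription factor (-0.28 ± 0.06), fell without overlap, and their corrected differences were -0.20 and -0.15.

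The respiratory chain is encoded in part by the mitochondrial genome. Of 15 mitochondrially encoded genes 7 fell, 0 rose and 8 were not called (median -0.21), 6 of the 7 without overlap, and the count was 7 without each of the 23 libraries and 6 after the correction. The complex I subunit gene mt-Nd5 had 114224, 127956 and 135977 normalized counts in WT control and 88304, 92145 and 111582 in HT shock, without overlap (-0.41 ± 0.08 SE, limma adjusted p = 0.00258). Its genotype step was -0.29, its shock step -0.12 and its wild-type shock step -0.05. The list's median was -0.20 in the genotype step and -0.01 in the shock step. The cytochrome oxidase gene mt-Co1 fell from 624241, 667015 and 708992 to 528283, 560030 and 605697 without overlap (-0.25 ± 0.05, adjusted p = 0.00244). Reads of these genes may be shared with nuclear copies.

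Of 74 nuclear-encoded respiratory chain genes 25 rose, 0 fell and 49 were not called, with a median of 0.12, and 0.05 after the correction. Ndufa10, a complex I subunit, rose from 3913, 4071 and 4353 to 4290, 4623 and 4886 normalized counts with overlapping groups (0.16 ± 0.04 SE, limma adjusted p = 0.00768, and 0.10 after the correction). The count that rose was 12, 10, 14 and 16 without HT shock replicates 1 to 4 in turn, 14, 10 and 12 without WT control replicates 2, 4 and 6, and 9 after the correction. All 79 cytosolic ribosomal protein genes had positive values with a median of 0.12, and 16 rose. That number was 3, 2, 4 and 8 without HT shock replicates 1 to 4 in turn, 2, 2 and 4 without WT control replicates 2, 4 and 6, 31 without HT control replicate 6, and 2 after the correction. Ribosomal protein genes are short and share reads with processed pseudogenes. Of 31 proteasome subunit genes 11 rose and 0 fell (median 0.13), 19 with HT control replicate 6 left out, 17 with replicate 6 of HT shock left out, and 9 after the correction. Psmc4, a subunit of the proteasome's ATPase ring, rose from 2305, 2371 and 2650 to 2671, 2836 and 2874 without overlap (0.22 ± 0.05, adjusted p = 0.00429).

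**Figure D4:**
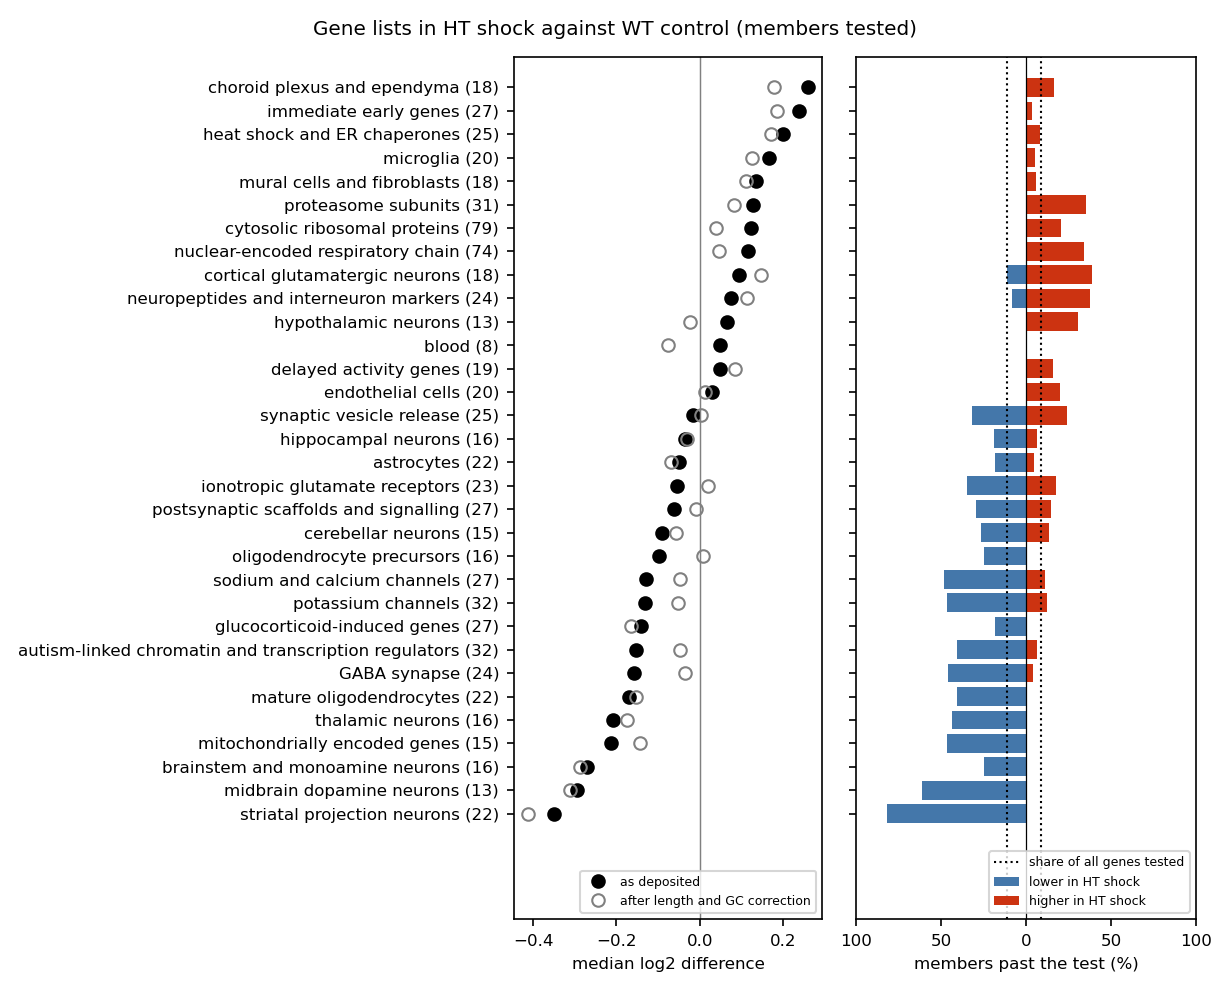
Left, the median log2 difference of HT shock minus WT control for each of the 32 gene lists as deposited (filled) and after the length and GC correction (open). Right, the percent of tested members that were lower (blue) or higher (red) by limma at an adjusted p under 0.05, with dotted lines at the 11.3% and 8.8% of all genes tested; the striatal list has 18 of 22 members lower.

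Glial and vascular genes followed. Of 22 genes of mature oligodendrocytes, the myelinating cells, 9 fell and 0 rose (median -0.17), but the count was 1, 2 and 4 without HT shock replicates 1, 2 and 3, and 4, 5 and 3 without WT control replicates 3, 4 and 6. After the correction it was 4. Gjc3, a glial connexin, fell from 2025, 2148 and 2380 to 1415, 1723 and 2005 normalized counts without overlap (-0.34 ± 0.08 SE, limma adjusted p = 0.00645). Picked after its values were seen, the major myelin gene Mbp (-0.18 ± 0.06) fell as well. Without HT shock replicate 1 the 1 call left was that of Gjc3, so Mbp was not called there. Of 16 precursor genes 4 fell and 0 rose (median -0.10), and after the correction 3 fell and 0 rose with a median of 0.01. Of 22 astrocyte genes 4 fell and 1 rose (median -0.05), with 7 lower when HT shock replicate 6 was left out and 2 higher when HT control replicate 6 was. After the correction 3 astrocyte genes were lower and 0 higher. Slc4a4, a bicarbonate transporter, fell from 5905, 6542 and 7765 to 4420, 4787 and 5461 without overlap (-0.44 ± 0.08, adjusted p = 0.0017, and -0.29 after the correction), and Gfap, the intermediate filament of astrocytes, rose by 0.17 ± 0.05 (adjusted p = 0.0123), with 0.08 after the correction (adjusted p = 0.315).

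Of 20 microglial genes 1 rose, the lysosomal glycoprotein gene Cd68 (0.38 ± 0.13 SE, limma adjusted p = 0.0443), and 0 fell (median 0.17). That call was absent without HT shock replicate 1, 2, 3, 5 or 6 or WT control replicate 2, 3, 4 or 5, and after the correction, and 2 genes rose without WT control replicate 1. Of 20 endothelial genes 4 rose and 0 fell (median 0.03, and 0.0008 to 0.10 over the omission of each library), and after the correction 0 rose. All 18 choroid plexus and ependymal genes had positive values (median 0.26), and 3 rose: Ccdc153 (0.46 ± 0.12), Foxj1, the transcription factor of motile cilia (0.25 ± 0.07), and Kcne2 (0.76 ± 0.25), a potassium channel subunit of the choroid plexus. After the correction 1 of the 18 rose, Ccdc153 (0.39), while Foxj1 had 0.13 (adjusted p = 0.279) and Kcne2 0.76 (adjusted p = 0.0554). Kcne2 also lost its call without HT shock replicate 3, 5 or 6 or WT control replicate 3, 5 or 6. The list's median was 0.21 in the genotype step, 0.00 in the shock step and 0.17 in the wild-type shock step. Its scores ranged widely and overlapped, from -0.479 to 0.152 in WT control and from -0.125 to 0.377 in HT shock. Of 18 mural cell and fibroblast genes 1 rose, Igf2 (0.29 ± 0.10, adjusted p = 0.044), and 0 of 8 blood genes were called. Igf2 lost its call without HT control replicate 2, replicate 1, 4, 5 or 6 of HT shock, WT control replicate 2, 3, 4 or 5 or WT shock replicate 1, and after the correction.

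Among genes that respond to neuronal activity, 3.7% of the immediate early list and 15.8% of the delayed list were called, all higher, beside 8.8% of all genes. Of 27 immediate early genes, which are induced within minutes of activity, 1 rose and 0 fell, although 25 had positive values (median 0.24). Ier5 had 1455, 1811 and 2094 normalized counts in WT control and 1874, 2545 and 2695 in HT shock with overlapping groups (0.42 ± 0.09 SE, limma adjusted p = 0.00388). Picked after their values were seen, Fos had 0.37 ± 0.36 (adjusted p = 0.5) and Arc 0.35 ± 0.39 (adjusted p = 0.556), whose errors are as large as the differences. The scores of the list spread from -0.608 to 0.559 in WT control and from -0.251 to 0.382 in HT shock. Without WT control replicate 5, 3 of the genes rose. Of 19 delayed activity genes 3 rose and 0 fell (median 0.05), and after the correction 4 rose and 0 fell with a median of 0.09. Vgf, a secreted neuropeptide precursor, rose from 5684, 5951 and 6280 to 6384, 7597 and 7945 (0.32 ± 0.05, adjusted p = 0.00144), and Nptx2, a secreted pentraxin of excitatory synapses, from 699, 785 and 863 to 927, 972 and 1076 (0.33 ± 0.06, adjusted p = 0.00213), both without overlap. Their corrected differences were 0.21 and 0.21.

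Of 27 glucocorticoid-induced genes 5 fell and 0 rose (median -0.14). Klf9, a transcription factor, fell from 6775, 7734 and 8113 to 6117, 6599 and 6737 without overlap (-0.21 ± 0.06 SE, limma adjusted p = 0.0138). The number that fell was 3, 1 and 2 without HT shock replicates 2, 4 and 5, and 2, 1 and 2 without WT control replicates 3, 4 and 6. After the correction 2 were lower, and Klf9 had -0.15 (adjusted p = 0.0752). Picked after their values were seen, Fkbp5, a feedback regulator of the glucocorticoid receptor, had -0.02 ± 0.09 (adjusted p = 0.907), and Lcn2, an acute-phase protein, had the lowest value of the list at -1.82 ± 1.28 (adjusted p = 0.331). Of 25 heat shock and chaperone genes 2 rose and 0 fell (median 0.20), and 8 rose without WT control replicate 6. Without HT shock replicate 3 or WT control replicate 4 the number was 0, and it was 1 without HT shock replicate 1, 2, 5 or 6 or WT control replicate 1, 3 or 5. After the correction 3 rose and 0 fell, with a median of 0.17.

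Hippocampal and cerebellar lists held calls in both directions. Of 16 hippocampal genes 3 fell and 1 rose (median -0.04, and -0.08 to -0.0003 over the omission of each library). Among those that fell was Prox1, a transcription factor of dentate granule cells (-0.34 ± 0.09 SE, limma adjusted p = 0.0101). Zbtb20 fell further, by -0.59 to -0.49 over the omission of each library, and passed without each of the 23 libraries. After the correction 2 fell and 0 rose, where Prox1 had -0.19 (adjusted p = 0.0611) and Zbtb20 -0.32 (adjusted p = 0.0205). The 1 that rose, Bok, lost its call without HT shock replicate 1, 2 or 3 or WT control replicate 3, 4 or 6. Of 15 cerebellar genes 4 fell and 2 rose (median -0.09), with 1 higher without HT shock replicate 4 or WT control replicate 2, and 2 lower without HT shock replicate 2 or 3 or WT control replicate 4, 5 or 6. After the correction 2 were lower and 1 higher. Of 13 hypothalamic genes tested (18 listed) 4 rose and 0 fell (median 0.07, 0.01 to 0.32 over the omission of each library and -0.02 after the correction), among them Pomc, which had 22, 43.1 and 47.6 normalized counts in WT control and 48.4, 59.7 and 72.9 in HT shock (0.60 ± 0.18, adjusted p = 0.0217). Pomc lost its call without HT shock replicate 1 or WT control replicate 6. The number of hypothalamic genes that rose was 1 without HT shock replicate 1 or 2, 2 when WT control replicate 4 or 6 was left out, and after the correction it was 0.

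Of the called genes 25 were over 2-fold lower and 15 over 2-fold higher. Those named by rule have a mean of at least 20 and no predicted or clone symbol, so that genes with larger fold changes are not among them. The added 1 shrinks the values of genes of low level. Kcng3, a modulatory potassium channel subunit, had 23.2, 35.7 and 53.5 normalized counts in WT control and 8.7, 15.8 and 19.5 in HT shock, without overlap (-1.25 ± 0.34 SE, limma adjusted p = 0.0134). Ptpn7, a phosphatase of haematopoietic cells, had 23.6, 31.1 and 50.8 against 7.76, 15 and 23.2 (-1.12 ± 0.24, adjusted p = 0.00438). Oprm1, the mu opioid receptor (chromosome 10, 6758506 to 7038198, plus strand), had 45.3, 58.8 and 75.4 against 18.9, 32.6 and 43.3 (-0.95 ± 0.25, adjusted p = 0.0122). Uprt, named for its similarity to a pyrimidine salvage enzyme (chromosome X, 104482818 to 104507490, plus strand), had 117, 136 and 184 against 58, 73.2 and 110 (-0.92 ± 0.19, adjusted p = 0.00305). None of these 4 overlapped between the groups, and each passed without each of the 23 libraries. Cd4 (-0.92) and C1ql4 (-0.88) fell with overlap. Pabpc5 (-0.99) lost its call without WT control replicate 4. Serpina3g, a member of a multicopy serpin cluster whose reads may be split, had -1.03 ± 0.35 and lost its call without WT control replicate 6, at 91.9 normalized counts, or WT control replicate 3 or HT shock replicate 1, 2, 3, 4 or 6, and after the correction (adjusted p = 0.0554).

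Of the lower genes with the smallest p, Foxo1, a transcription factor of insulin signalling, had 1092, 1104 and 1138 normalized counts in WT control and 787, 845 and 906 in HT shock (-0.39 ± 0.05 SE, limma adjusted p = 0.000654, and -0.26 after the correction). Its genotype step was -0.28 and its shock step -0.11. Soga1 had 1523, 1617 and 1764 against 1034, 1108 and 1274 (-0.52 ± 0.08, adjusted p = 0.000753), and here the genotype step was -0.12 and the shock step -0.40. Kctd9 had -0.41 ± 0.06. Whether the genotype and shock steps of a gene differ in size was not tested.

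The highest fold change of the genes named by rule was that of Mcm10, a DNA replication factor (chromosome 2, 4989714 to 5012791, minus strand), with 13.8, 22.7 and 27.9 normalized counts in WT control and 30.6, 51.5 and 71.9 in HT shock (1.19 ± 0.23 SE, limma adjusted p = 0.00263). Mylk3, a myosin light chain kinase known from heart muscle (chromosome 8, 85324303 to 85386345, minus strand), had 29.5, 44.6 and 50.1 against 64.2, 90.2 and 101 (1.05 ± 0.19, adjusted p = 0.00197). Anpep, the membrane aminopeptidase CD13 of pericytes and other cells, had 60.6, 102 and 143 against 154, 185 and 243 (0.94 ± 0.23, adjusted p = 0.00869). These 3 did not overlap between the groups, nor did Calml4 (0.73 ± 0.18) and Zfp429 (0.67 ± 0.18), and the 5 passed without each of the 23 libraries. For Mcm10 the genotype step was 0.51 and the shock step 0.68, for Mylk3 they were 0.72 and 0.33, and for Anpep 0.71 and 0.23. The wild-type shock step was 0.35, 0.36 and 0.29 in the same order.

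Several other high fold changes lost their call when single libraries were left out, while the fold changes kept their sign. The pseudogene Alms1-ps2 (0.99 ± 0.33 SE, limma, and 0.84 to 1.15 over the omission of each library), whose reads may belong to its parent gene, lost its call without HT shock replicate 1, 2, 3, 5 or 6 or WT control replicate 2, 4 or 5. Plb1 (0.99 ± 0.34, 0.753 to 1.255) lost it without HT shock replicates 2 to 6 in turn or WT control replicate 2, 4 or 6. Prss16 (0.79 ± 0.26, 0.67 to 0.95) lost it without HT shock replicate 2, 3 or 6 or WT control replicate 1, 2 or 5, and Bglap3 (0.67 ± 0.22, 0.51 to 0.79) without HT shock replicate 1, 3, 4 or 6 or WT control replicate 2, 5 or 6. Cldn2, a tight junction protein of the choroid plexus (0.67 ± 0.24, 0.50 to 0.86), kept its call with HT control replicate 4 or 6, replicate 2 of HT shock, WT control replicate 2 or 4 or WT shock replicate 2 or 5 left out, and lost it without each of the other 16 libraries. Tcap, a sarcomere protein (0.64 ± 0.17), passed without each of the 23 libraries. These 6 overlapped between the groups and were not called after the correction, where they had adjusted p-values of 0.051 (Tcap) to 0.076 (Prss16). Among the higher genes with the smallest p, Ptprn, a protein of dense-core vesicles, had 15184, 15883 and 16351 normalized counts in WT control and 17618, 18507 and 19104 in HT shock (0.22 ± 0.03, adjusted p = 0.00124, and 0.13 after the correction). Prrc2a had 13520, 14646 and 15223 against 16511, 16944 and 17477 (0.23 ± 0.04, adjusted p = 0.00129), and Gprin1 (0.27 ± 0.04) and Sidt1 (0.28 ± 0.05) rose without overlap too. For Ptprn the genotype step was 0.18 and the shock step 0.04, and for Prrc2a they were 0.03 and 0.21.

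**Figure D5:**
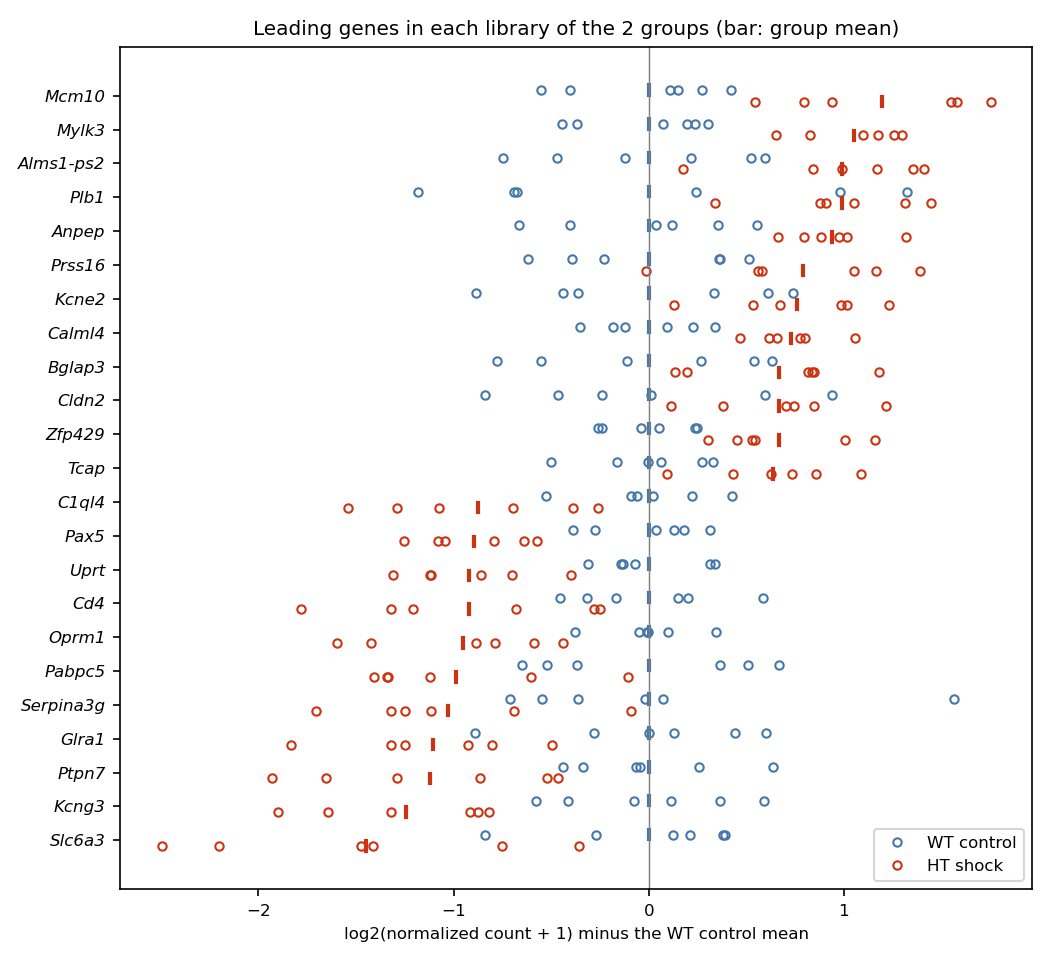
The 12 highest and the 11 lowest fold changes named by rule, as log2(normalized count + 1) minus the WT control mean (horizontal axis), for each WT control (blue) and HT shock (red) library with group means (bars). Mcm10, at 1.19, and Kcng3, at -1.25, do not overlap between the groups, while Slc6a3, at -1.45, does.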

How the data were processed

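RNA of the 23 labelled libraries was prepared with a stranded mRNA kit, per the labels' protocols. The deposited signal is a normalized count with decimals, not a raw count. The tools were DESeq2 1.26.0, Salmon 1.1.0 and R 3.6.2 on GRCm38, per the submitters' processing notes, which assign them no roles. Whole reads could not be recovered: at the best step, 23.2% to 56.3% of a library's low values lay within 0.1 of a whole multiple. The planned design named a count test for raw counts only, so limma was used on log2(value + 1). Of 24 library columns, 1 matched no sample and was not used.

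Genes with a mean of at least 10 over the 23 libraries were fitted in limma 3.58.1 (statmod 1.5.0, R 4.3.3), 4 groups in 1 fit, with trend and robust moderation and two-sided tests. P-values were adjusted by Benjamini-Hochberg over all genes, and 0.05 was the threshold. The comparison, the 32 gene lists and the rules were chosen with earlier results of these data known, so no list is independent evidence. The rule named Grin2b. It took the 12 called genes of highest and the 12 of lowest fold change whose mean reached 20, predicted and clone symbols left out. It added the 6 smallest p each way and, from each list, 4 called members at most, or the 2 of smallest p if none was called. Some of these genes are not reported here. Positions are from GENCODE M21 (18563 of 18578 IDs matched), and length and GC are those of the longest transcript, for 17106 genes tested. The correction regressed each library's deviations on natural splines of both, with 4 degrees of freedom each.

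The fit was tested on simulated data for HT shock against WT control, with 200 of 17118 genes changed in each of 3 runs. For log2 sizes of 0.25, 0.5, 1 and 2 it recovered 36.7%, 76.7%, 89.3% and 96% of the changed genes, and it called 23 of 50754 genes that had not been changed. The simulated noise was independent between genes and held no tilt with transcript length or GC content. Far fewer genes were changed than were called in the data, so these rates cannot be carried over to the data. Alternatives were median centring, other filters, pseudocounts of 0.5 and 5, the compared groups alone, a replicate block, library weights, an adjusted p of 0.1, no trend or robust moderation and the omission of each library. The length and GC correction, the same with library weights, and a joint omission of HT control replicate 6 and WT control replicate 1 were alternatives added after seeing the data. Plots used Python 3.11.15 and matplotlib 3.10.9.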

Additional observations from a re-analysis of the deposited data

Results flagged for a closer look

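Of 344 sets of 6 values examined (named genes and list scores in each of the 2 groups), 18 held a library whose gap to the nearest of the others exceeded 0.625 of the group's range, Dixon's critical value for 6 libraries. Chance flags about 1 in 20 such groups. Values are normalized counts unless called a score.

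HT shock replicate 6 stood apart in 7 sets. It was highest for Kcnq3 (5380, nearest 5010) and the glutamate transporter gene Slc1a2 (54500, nearest 47300), and lowest for Rpl21 (6950, nearest 7320), Grik5 (7270, nearest 8030), Psmd3 (4020, nearest 4390), Psmc4 (2670, nearest 2830) and the score of nuclear-encoded respiratory chain genes (-0.0171, nearest 0.0619). In each of these it lay on the side of WT control. Its tilt with transcript length, -0.0137, was also the highest of HT shock, and whether the tilt bears on these sets was not tested. In other HT shock libraries, Bcas1 was low in replicate 1 (4940, nearest 5500), Rpl35 high in replicate 2 (3080, nearest 2810), S100a9 low in replicate 4 (2.85, nearest 14.6) and Ier5 low in replicate 5 (1870, nearest 2440).

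In WT control, replicate 6 was high for Serpina3g (91.9, nearest 32.1) and S100a8 (54.8, nearest 16.6) and low for Pomc (22, nearest 39.4). Replicate 1 was low for Prox1 (936, nearest 1200), Glul (41800, nearest 45300) and the score of hippocampal genes (-0.122, nearest 0.0327), and replicate 4 was high for Cacng3 (2830, nearest 2520). The interaction test flagged 0 of 140 named genes at an adjusted p under 0.05.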

How the results depend on the processing

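By limma, 3434 genes were called (1506 higher, 1928 lower). Corrected for length and GC content the counts were 1465 (698 and 767), and 2192 (1080 lower) with library weights as well, both added after seeing the data. At an adjusted p of 0.1, 2304 genes were higher. Leaving out each library gave 2056 (WT control replicate 4) to 4323 (HT control replicate 6) calls, 849 to 1913 higher and 1207 to 2410 lower. The joint omission of HT control replicate 6 and WT control replicate 1, added after seeing the data, gave 4739 (2150 higher, 2589 lower). With a replicate block 2889 genes were called (1223 higher, 1666 lower), or 4300 (1875 higher, 2425 lower) with the compared groups alone. Deviations of same-numbered libraries of the compared groups had correlations of -0.0895 to 0.194. These values cannot exclude a shared litter or batch, so whether the numbers pair the samples is unknown. In WT shock most replicate numbers differ from the column numbers, so the block over all 4 groups may be misaligned. Centring, filters, pseudocounts, plain moderation and library weights gave 2991 to 4867. Among genes called both ways 0 changed sign, except 1 under the correction with weights. Grik2 reversed under the correction (0.0077) and under it with weights (0.0031). Of 138 called named genes, 104 passed without each library and 91 after the correction. Depth is unknown, so the limit it sets cannot be given.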
